A study of Drosophila melanogaster with 8 samples.

Results

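The distribution of trimethylated lysine 9 of histone H3 (H3K9me3) along the genome was described in control ovaries of adult Drosophila melanogaster, from chromatin immunoprecipitation sequencing (ChIP-seq) set against input DNA. The 4 libraries used, of 8 in the series, were chosen by their labels. Of these, 2 were immunoprecipitated with an antibody to H3K9me3 (shW_H3K9me3) and 2 were input without antibody (shW_input). All came from flies of genotype MTgal4_shW, in which the MTgal4 driver, active in female germ cells, expresses a hairpin that the deposited tables name for white. These flies carried the driver and a hairpin and are therefore not untreated wild type. The stocks were kept at 24C and fed yeast before dissection; no age is given. The labels name whole ovaries, which hold germ cells and somatic follicle cells, and the values do not tell these apart. The remaining 4 libraries carry a hairpin named for Sov and enter 1 alternative fit only.

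H3K9me3 is laid down by histone methyltransferases such as Su(var)3-9 and Eggless and is bound by HP1, and it marks the condensed chromatin around centromeres. In fly ovaries the same mark covers chromosome 4 and the clusters of transposon fragments that give rise to piRNAs, small RNAs that silence transposons. On the long arms most genes lie in euchromatin, where the mark is sparse.

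The authors counted reads in 168744 windows of 1 kb on 15 scaffolds of genome build dm3 and gave each count also as RPKM, the read number scaled by window length and library total. Read totals were 4208693 and 6383061 in ChIP replicates 1 and 2, against 13688640 and 9760028 in their inputs. A window was tested when its mean input over the 2 inputs was at least 2 RPKM, which kept 116751 windows. Per tested window the median read number was 21 and 38 for ChIP, against 100 and 77 for input. Counts of the ChIP replicates differed by a chi-square of 3.00 per degree of freedom and those of the inputs by 2.15, so neither pair agreed within counting error. Nothing in the labels says that replicates came from separate flies, so the spread given here may be technical. Enrichment is the log2 ratio of ChIP to input after 1 RPKM was added to each, formed between libraries of the same replicate number. The values of the 2 replicates correlated across tested windows with Pearson's r = 0.82, where windows are not independent.

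Most tested windows of the Het scaffolds and of chromosome 4 stood above input, whereas few of those in the arms more than 1 Mb from the proximal end did. These scaffolds were read only in part, since 27.2% of the Het windows and 4.41% of those on the unplaced scaffold U passed the input filter. With edgeR's quasi-likelihood test and Benjamini-Hochberg adjusted p under 0.05, ChIP was higher than input in 14567 windows (12.5% of those tested) and lower in 51938 (44.5%). Higher windows made up 97.6% of the 2429 tested windows of the Het scaffolds, which hold mapped pericentric sequence. They made up 83.2% of the 1182 windows of chromosome 4 and 64.7% of the 3545 windows in the 1 Mb nearest the centromere of each long arm (proximal arms). In the remainder of these arms (distal arms) they made up 7.73% of 109070 windows, and 47.3% there were lower. Scaled to library totals, the typical (median) tested window had an edgeR log2 change of -0.58, so lower values are relative to reads gathered elsewhere. With TMM factors that median was -0.04, with 20946 windows higher and 2677 lower. DESeq2 gave 18526 higher and 596 lower, and library sizes taken from the distal autosomal arms gave 18276 higher and 9888 lower. The number of higher windows was 8318 without input replicate 1 and 8911 without input replicate 2, and the number of lower windows was then 12708 and 11521.

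A stricter criterion of at least 2-fold enrichment in both replicates was met by 8114 windows, 6.95% of those tested, called enriched in the following. Each of them was also higher by edgeR's test. Replicate 1 alone had 10989 such windows (9.41%) and replicate 2 alone had 8747 (7.49%), so the shared set was 73.8% of the set of replicate 1 and 92.8% of the set of replicate 2. Thinning the 2 ChIP libraries to equal depth, and separately the 2 inputs, gave 8086 windows in both replicates. The depths of ChIP and input were not made equal to each other.

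**Figure D1:**
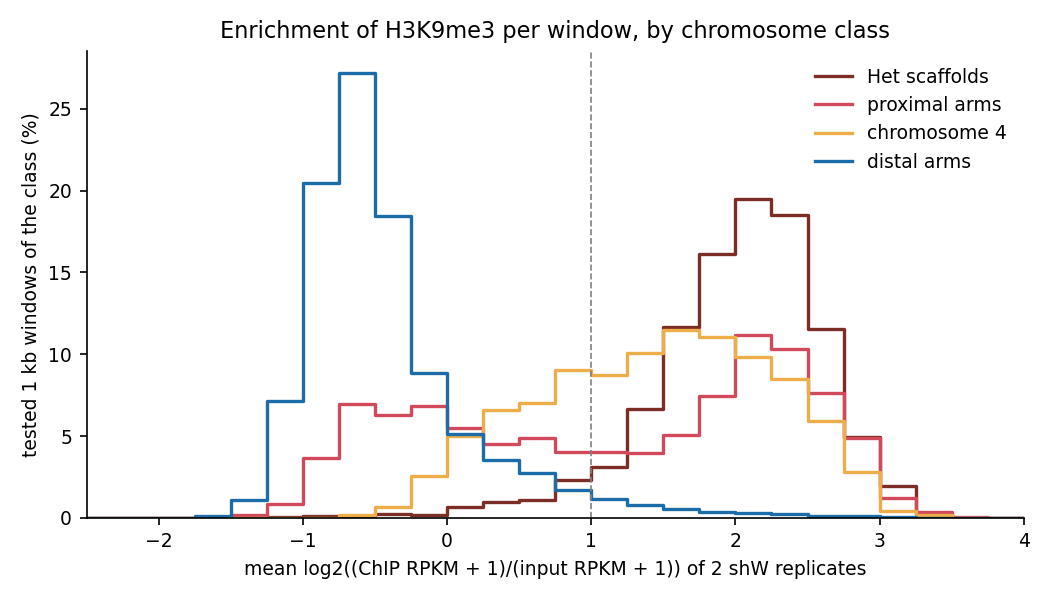
Distribution of log2 enrichment over tested 1 kb windows, as a percentage of each class, for the mean of the 2 shW replicates. The dashed line marks 2-fold enrichment. The Het scaffolds centre near 2.08 and the distal arms near -0.56, chromosome 4 lies between them, and the proximal arms show both peaks.

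The plot of enrichment per window shows 2 separate levels. On the Het scaffolds mean ChIP signal was 24.7 and 25.9 RPKM, against 4.97 and 5.22 RPKM in the inputs. Both ChIP values lay above both inputs. Log2 enrichment there averaged 2.02 ± 0.03 (SD, n = 2), with a median of 2.08 and an interquartile range from 1.71 to 2.41 over windows. In the distal arms the ChIP held 6.92 and 7.04 RPKM, against 8.48 and 8.52 RPKM in the inputs. Enrichment averaged -0.42 ± 0.08 (SD, n = 2), and it was below 0 in both replicates in 75.7% of windows. The difference between Het scaffolds and distal arms was 2.51 in replicate 1 and 2.36 in replicate 2, well beyond the spread between replicates.

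The share of reads per class showed the same division. The Het scaffolds held 7.62% and 8.33% of ChIP reads, against 1.48% and 1.58% of input reads, a ratio of 5.21. The proximal arms held 8.33% and 8.35% of ChIP reads, against 2.66% and 2.74% of input reads. On chromosome 4 the shares were 6.11% and 3.77% in ChIP and 1.37% and 1.44% in input. The distal arms held 75.7% and 77.0% of ChIP reads, against 92.6% and 93.0% of input reads. Each of these 4 classes had p = 0.333 in an exact permutation test (two-sided), the lower limit for 2 libraries against 2, and 0.381 after Benjamini-Hochberg adjustment over 8 classes, which take in YHet and the mitochondrial scaffold. These shares are of all windows, those under the input filter included. Over tested windows alone the Het scaffolds held 6.20% and 6.55% of ChIP reads, against 1.21% and 1.28% of input reads.

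The 5 mapped Het scaffolds were not alike. Enriched windows made up 94.6% of 988 tested windows on 2RHet, 93.7% of 842 on 3LHet, 89.5% of 86 on 2LHet and 87.2% of 430 on 3RHet. Mean log2 enrichment on these 4 lay between 1.96 and 2.12. XHet stood apart, with 12 of 83 windows enriched and a mean of 0.67 in replicate 1 and 0.44 in replicate 2. Its ChIP signal was 13.6 and 10.8 RPKM, against 8.18 and 7.59 RPKM in the inputs. Input on XHet was also higher than on the other 4 scaffolds, where the group means ran from 4.63 to 5.32 RPKM. Whether DNA copy number or mappability plays a part in this was not tested.

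The unplaced scaffold U had 407 of 443 tested windows enriched, and a mean log2 enrichment of 1.76 and 1.79. Its read share nevertheless differed little, at 1.53% and 1.76% in ChIP and 1.79% and 1.05% in input (two-sided exact permutation test, p = 1). The 5 windows with most input held 64.1% and 47.3% of the input reads in tested windows of U, against 3.73% and 0.97% of the ChIP reads. Their input lay between 914 and 2414 RPKM, whereas the median tested window of U held 3.26 RPKM. The median log2 enrichment of these 5 windows was -5.07 in replicate 1 and -5.40 in replicate 2. On Uextra, 59 of 82 tested windows were enriched.

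Arms 2L, 2R and 3L each had a block of the mark that ran from the proximal end, with a lower level beyond it. A step with 1 level inside and another outside was fitted to the mean enrichment of the proximal 5 Mb of each arm. On 3L the best step lay at 23007000, 1537 kb from the proximal end, with means inside of 2.16 and 2.04 in the 2 replicates and -0.50 outside over both, and it accounted for 83.2% of the variance among windows. On 2R it lay at 1609000, which is 1609 kb from the proximal end, with 2.13 inside and -0.29 outside and 72.4% of the variance. On 2L it lay at 22130000, 882 kb from the proximal end, with 2.05 inside and -0.38 outside and 65.4% of the variance. Fitted to each replicate alone, the 3L boundary lay at 23006000 and 23008000, the 2R boundary at 1620000 and 1605000, and the 2L boundary at 22107000 and 22152000.

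**Figure D2:**
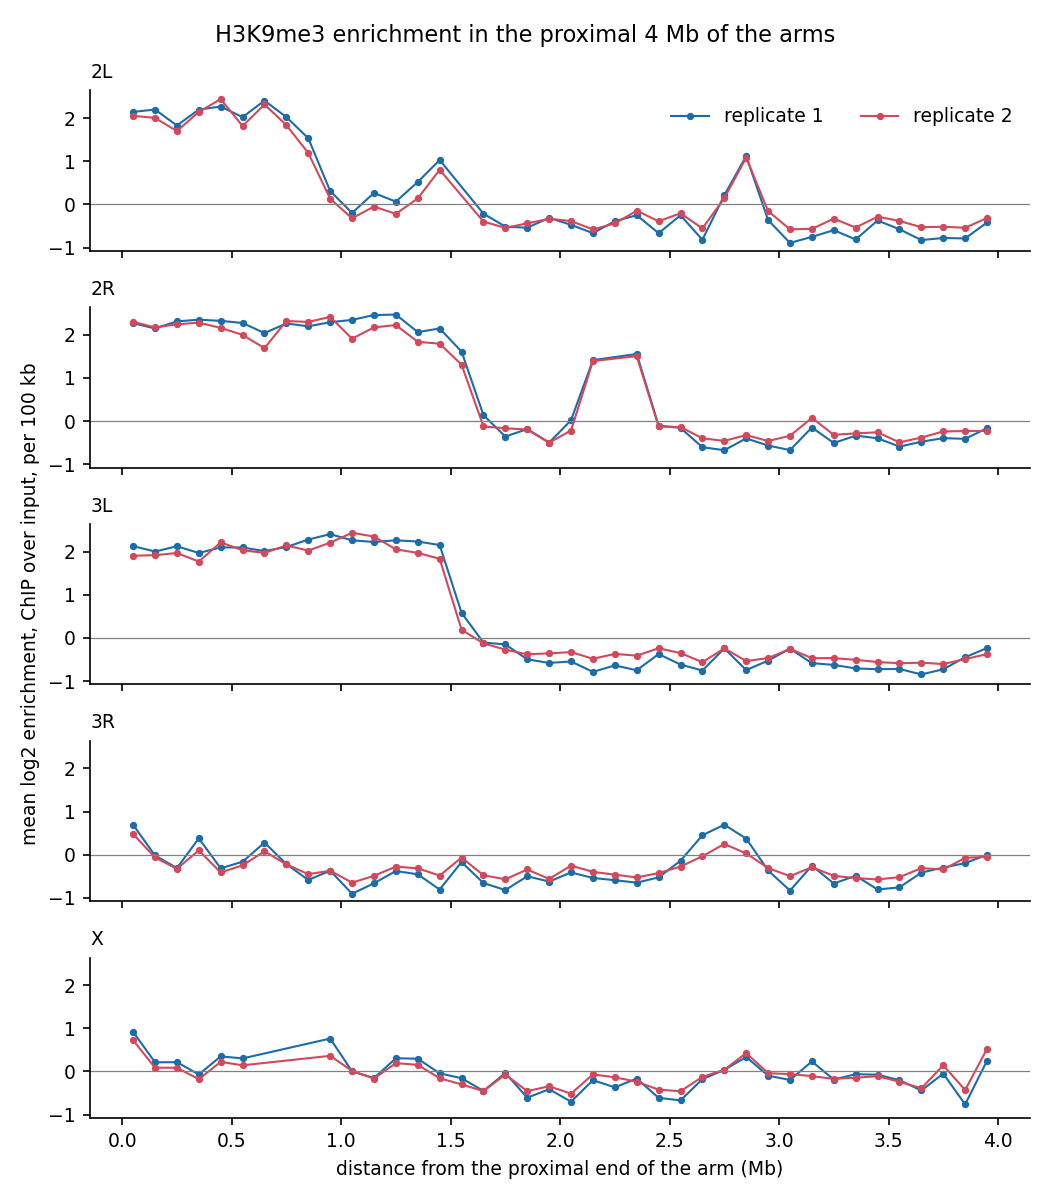
Mean log2 enrichment of ChIP over input in 100 kb bins, against distance from the proximal end of each arm, for shW replicates 1 and 2. Bins with under 20 tested windows are left out. On 2L, 2R and 3L a plateau near 2 ends at 882, 1609 and 1537 kb, and 3R has no such plateau. On X the bins from 600 to 900 kb are among those left out.

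No single step of this size described 3R or X. The best step accounted for 6.80% of the variance on 3R and 6.29% on X, and on 3R its place was not stable, at 744 kb from both replicates together but at 42 kb from replicate 2 alone. In the first 50 kb of 3R, 19 of 45 tested windows were enriched, with means of 1.22 and 0.88. From 50 to 100 kb only 2 of 40 were, with means of 0.10 and 0.03. On X, the bins from 600 to 700, 700 to 800 and 800 to 900 kb held only 3, 4 and 10 tested windows, all of them enriched, with means from 1.80 to 2.44. Over the whole proximal 1 Mb of X 13.4% of the tested windows were enriched, against 93.5% on 3L, 92.1% on 2R, 72.7% on 2L and 5.22% on 3R.

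The profile at each boundary was measured in the replicate that had not placed it. On 3L, where the 2 placements lay 1538 and 1536 kb from the proximal end, replicates 1 and 2 held 1.73 and 1.18 in the last 20 kb inside. They held 0.54 and 0.04 in the first 20 kb outside, and -0.26 and -0.62 from 20 to 50 kb outside. Both replicates were thus below 0 on 3L within 50 kb of the boundary. On 2R the placements were 1620 and 1605 kb, and from 20 to 50 kb outside the means were 0.07 and -0.53. On 2L they were 905 and 860 kb, so that the interval up to 50 kb outside the boundary of replicate 2 lay largely inside that of replicate 1, and no width is given there. From 50 to 100 kb outside, beyond both placements, the means on 2L were 0.37 and -0.06.

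**Figure D3:**
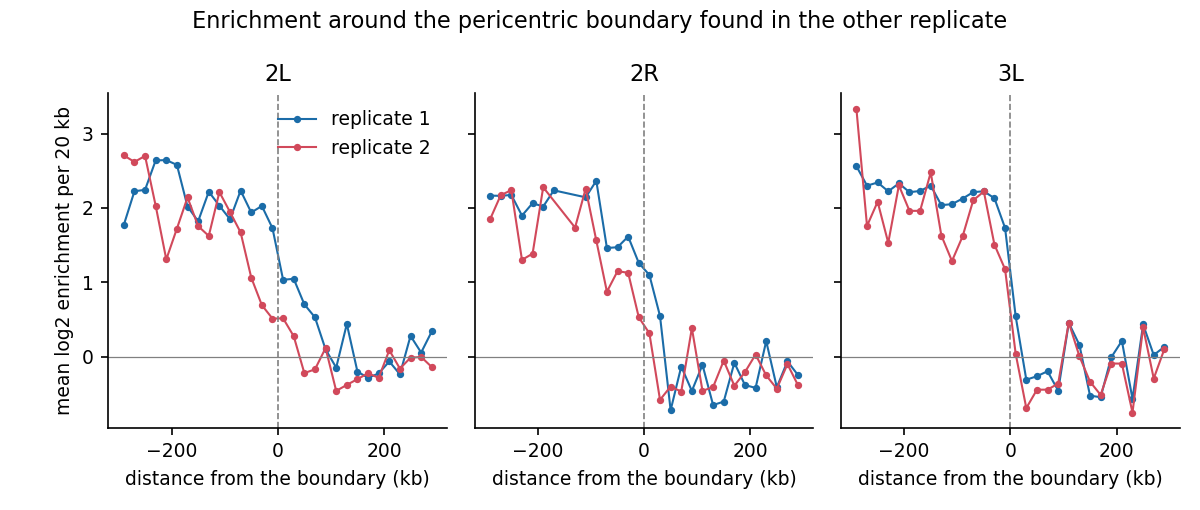
Mean log2 enrichment in 20 kb bins around the pericentric boundary of 2L, 2R and 3L, each replicate plotted about the boundary found in the other one. Negative distances lie inside the block. On 3L the means are -0.26 and -0.62 between 20 and 50 kb outside. On 2L the curves are displaced from each other because the replicates placed the boundary at 905 and 860 kb, so their slope there is not a width.

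Beyond the boundary the level did not reach that of the distal arm at once on 2L. Means over replicates were -0.01 ± 0.15 from 100 to 500 kb outside, -0.20 ± 0.15 from 500 to 1000 kb, -0.31 ± 0.11 from 1 to 2 Mb and -0.50 ± 0.09 beyond 2 Mb (SD, n = 2 each). On 3L the same intervals gave -0.33 ± 0.05, -0.49 ± 0.18, -0.52 ± 0.09 and -0.53 ± 0.09. On 2R the interval from 500 to 1000 kb stood out at 0.51 ± 0.01, between values of -0.25 ± 0.03 and -0.42 ± 0.11 on either side. That interval overlaps 42AB, a main piRNA source locus of germ cells. Between 2.1 and 2.4 Mb of 2R, 91 of 134 tested windows were enriched, with means of 1.52 and 1.53. ChIP signal there was 20.9 and 22.4 RPKM, against 7.11 and 7.23 RPKM in the inputs.

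These boundaries redraw the division at 1 Mb used above. Of the 2977 enriched windows of the distal arms, 745 lay inside the blocks of 2R and 3L. Inside the 3 blocks 2441 of 2767 tested windows were enriched, and outside them 2371 of 109848. Mean log2 enrichment in the blocks was 2.17 in replicate 1 and 2.03 in replicate 2, and outside them it was -0.49 and -0.37. The blocks exceeded the Het scaffolds by 0.13 and 0.03, a difference close to the spread between replicates (0.08 ± 0.07, SD, n = 2). These counts and levels are descriptions, since the same values placed the boundaries.

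Lengths of continuous marking were then compared, with a run taken as adjacent enriched windows joined over gaps of 1 window. There were 1900 runs, typically short (median 2 kb) and at most 84 kb long, and 244 of them spanned at least 10 windows (domains). In the blocks the median run was 8 kb and 78.9% of enriched windows lay in domains. On chromosome 4 the share in domains was 81.8%, on the Het scaffolds 58.4%, and on the arms outside the blocks 14.1%. Outside the blocks 551 of 1075 runs were a single window, 412 were 2 to 4 windows and 28 were domains, of which 3 reached 20 windows.

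Windows that could not be tested adjoined many domains. Of the ends of domains, 85.1% on the Het scaffolds and 69.2% in the blocks adjoined a window under the input filter or the end of a scaffold, against 23.2% on the arms outside the blocks and 18.5% on chromosome 4. When untested windows were skipped, runs joined across any stretch of them. The median domain of the Het scaffolds then spanned 178.5 kb in place of 15 kb, and 97.7% of enriched windows there lay in domains. Those domains covered 8002 kb, but only 2429 windows of the Het scaffolds were tested, so most of that span was not read. In the blocks the median became 49 kb in place of 16 kb, while on chromosome 4 it was 20 kb in place of 16 kb, and on the arms outside the blocks 12 kb in place of 11 kb.

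Runs found in 1 replicate were measured in the other, which had no part in their choice. On the arms outside the blocks, runs found in replicate 1 averaged in replicate 2 0.74 for single windows, 1.08 for 2 to 4 windows, 1.14 for 5 to 9 and 1.32 for 10 to 19. Runs found in replicate 2 averaged in replicate 1 1.28, 1.42, 1.51 and 1.59 for the same lengths. Up to 19 windows the level was higher in longer runs in both directions, and the offset between the directions was larger than most of these steps. For 20 windows or more the mean was 1.44 in replicate 2 over 6 runs. In replicate 1 it was 1.55 over 3 runs, below the 1.59 of the class before. Of single windows found in replicate 1, 30.4% were enriched in replicate 2, and of those found in replicate 2, 70.0% were enriched in replicate 1. For runs of 10 to 19 windows the shares were 65.4% and 88.2%. On the Het scaffolds single windows averaged 1.94 ± 0.03 and 94.0% ± 5.54 of them were enriched again (SD over both directions, n = 2). Longer runs there averaged between 2.08 and 2.15, so single windows were lowest on these scaffolds too. They nevertheless stood above the 0.74 and 1.28 of single windows on the arms outside the blocks.

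Edges of domains were examined the same way. On the arms outside the blocks, domains found in replicate 1 had in replicate 2 a mean of 0.87 in the last window inside, 0.30 in the first outside and 0.08 in the second, over 137 edges. In the reverse direction, over 51 edges, the values were 1.25, 0.74 and 0.41. At 10 kb outside the means were -0.03 and 0.01, above the -0.37 and -0.49 of these arms as a whole. X, which held 16 of the 28 domains called in both replicates, averaged -0.16 and -0.14 along its arm. Edges were not separated by arm, and the part of X in this gap was not tested. In the blocks the mean outside the edge did not stay low. Over 24 edges measured in replicate 2 it was 0.10 in the first window outside and 0.08 in the second, and 1.26 at 5 kb. Over 64 edges measured in replicate 1 it was 1.48 in the first window, 1.20 in the second and 1.84 at 5 kb. Edges were placed where a tested window failed the criterion in the other replicate, so some dip at them follows from the rule. In replicate 1 the mean outside stayed above the 2-fold criterion. Further out the mean in the blocks rose again in both directions.

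**Figure D4:**
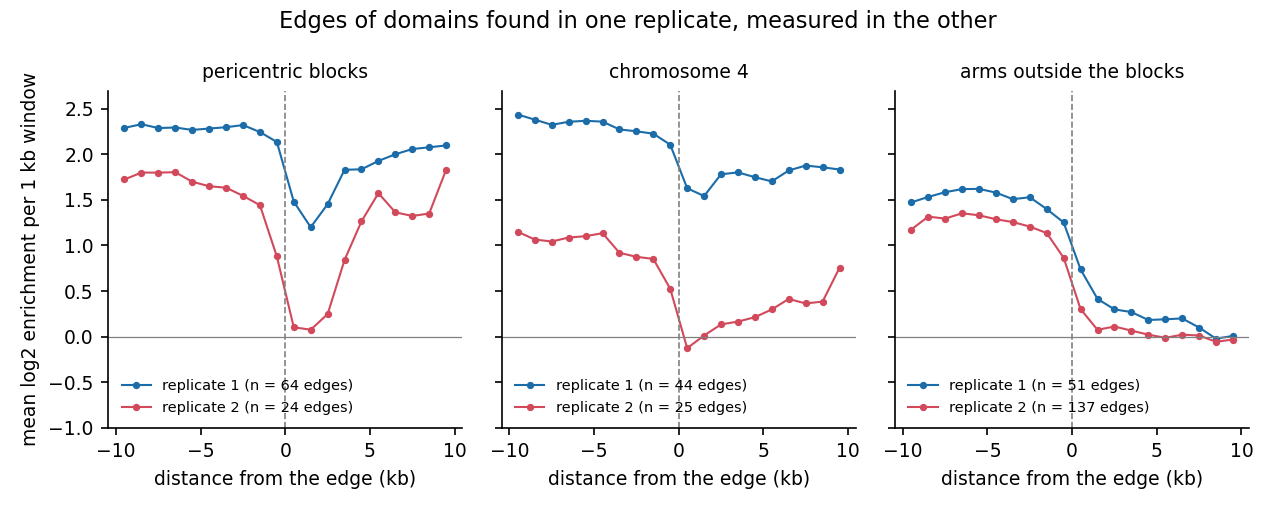
Mean log2 enrichment per 1 kb window around the edges of domains, for edges whose neighbouring window was tested. Domains were found in 1 replicate and are plotted in the other; negative distances lie inside. In the blocks the mean recovers to 1.26 and 1.84 by 5 kb, whereas on the arms outside the blocks it falls to about 0 and stays there.

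On 2L, 2R and 3L the longest domain lay within the pericentric block. On 2L the longest was 63 kb at 22315001 to 22378000, with 47.4 and 42.5 RPKM in ChIP, against 7.30 and 7.21 RPKM in input. On 3L it was 52 kb at 23438001 to 23490000, with 22.4 and 28.9 RPKM against 3.87 and 4.50 RPKM. On 2R it was 48 kb at 1332001 to 1380000, with 33.6 and 38.4 RPKM against 6.69 and 7.54 RPKM. Their levels are descriptions, since domains were defined by enrichment in both replicates. Among the Het scaffolds the longest was 46 kb at 2383001 to 2429000 of 3LHet, with 41.9 and 37.7 RPKM in ChIP, against 7.65 and 7.78 RPKM in input. On 3R the longest was only 11 kb, at 27620001 to 27631000, which is 27.6 Mb from the proximal end.

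At least 2 Mb from the proximal ends there were 27 domains, and the 3 longest were on X and 2L. The X domain at 18431001 to 18460000 had 21.7 and 26.7 RPKM in ChIP, against 6.21 and 6.41 RPKM in input, an enrichment of 1.73 ± 0.17 (SD, n = 2). The 2L domain at 20100001 to 20121000 had 20.5 and 24.1 RPKM against 5.95 and 6.01 RPKM, an enrichment of 1.69 ± 0.15 (SD, n = 2). The X domain at 3192001 to 3212000 had 26.1 and 24.3 RPKM against 7.91 and 8.37 RPKM, an enrichment of 1.51 ± 0.12 (SD, n = 2). These 3 values lay under the median of 2.23 over the 104 domains of the blocks.

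The X chromosome carried the mark more widely along its arm than the autosomes did. Outside the blocks X held 19.1% of the tested windows and 47.7% of the enriched ones, 1131 of 2371. It had 23.3 runs per 1000 tested windows, against 5.34 on 3L, 5.40 on 3R, 7.51 on 2L and 8.76 on 2R, and 16 of the 28 domains. Mean ChIP signal on X was 9.31 and 8.51 RPKM, against 8.78 and 8.68 RPKM in the inputs. On the autosomal arms outside the blocks it was 6.11 and 6.45 RPKM, against 8.42 and 8.49 RPKM in the inputs. The input values of X and the autosomes were close, and the difference lay in the ChIP. Mean log2 enrichment on X exceeded that of the autosomal arms by 0.43 in replicate 1 and 0.26 in replicate 2 (0.35 ± 0.12, SD, n = 2). Over the 1 Mb bins more than 2 Mb from the proximal end, the median share of enriched windows was 5.25% on X and between 0.73% and 1.67% on the autosomal arms.

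The proximal part of X from 21 to 22 Mb holds flamenco, a piRNA cluster active in follicle cells, and the cluster 20A. Only 618 of its 1000 windows were tested and 81 of these were enriched. When untested windows were skipped, a run from 21507001 to 21844000 spanned 337 kb but rested on 35 tested windows, so that most of this stretch was not read.

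Chromosome 4 was marked along its whole length, but its level differed between replicates. ChIP signal averaged 51.5 RPKM in replicate 1 and 31.8 RPKM in replicate 2, against 11.5 and 12.1 RPKM in the inputs. Mean log2 enrichment was 1.82 and 1.07, and 977 windows were enriched in replicate 1, 650 in replicate 2 and 648 in both. In each of 13 bins of 100 kb replicate 1 was higher, by 0.60 to 0.84, so that the offset was nearly even along the chromosome. Within chromosome 4 the values of the replicates nevertheless correlated across windows with Pearson's r = 0.85. In the remaining classes the replicates differed by an SD of 0.02 to 0.11, against 0.53 on chromosome 4. In replicate 1 the ChIP library was less deep and the input library deeper than in replicate 2, and the part of depth in the offset was not tested.

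**Figure D5:**
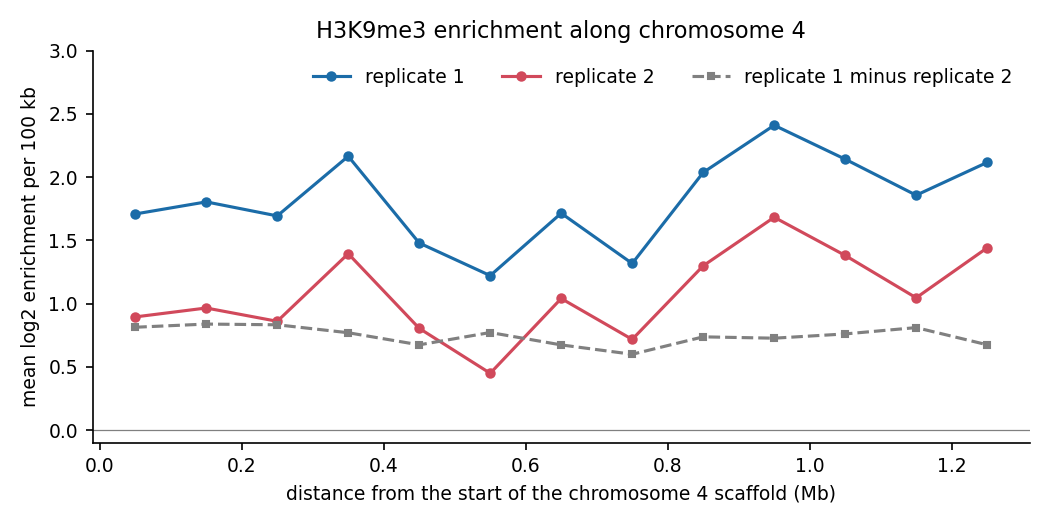
Mean log2 enrichment of ChIP over input in 13 bins of 100 kb along chromosome 4, for shW replicates 1 and 2, with their difference in grey. Both replicates are highest between 0.9 and 1 Mb and lowest between 0.5 and 0.6 Mb, and the difference stays between 0.60 and 0.84.

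Along chromosome 4 both replicates showed the same peaks and troughs. The bin from 900 to 1000 kb was highest, at 2.41 and 1.68, with 83 of 98 windows enriched. The bin from 500 to 600 kb was lowest, at 1.22 and 0.45, with 21 of 100 enriched. The longest domain by the rule that joins gaps of 1 window, 84 kb at 934001 to 1018000, fell in the high part. It had 69.2 and 42.5 RPKM in ChIP, against 11.3 and 11.9 RPKM in input. With untested windows skipped, the longest run was 111 kb on chromosome 4 and 11 kb on 3R. Such runs reached 162 kb on 2L, 272 kb on 2R, 312 kb on 3L, 337 kb on X and 1539 kb on the Het scaffolds. These spans take in untested windows, and the runs on 3L and X rested on 129 and 35 tested windows. The rank of chromosome 4 thus depends on how untested windows are treated.

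The windows with the largest edgeR change in each class had log2 fold changes from 3.47 to 3.78, except on Uextra, where they were 4.46 and 4.41. On chromosome 4 the window at 1218001 to 1219000 had 223 and 105 RPKM in ChIP, against 13.2 and 14.0 RPKM in input (log2 fold change 3.59, edgeR adjusted p 6.5e-12). The window at 151001 to 152000 of chromosome 4 had 199 and 125 RPKM against 13.7 and 15.6 RPKM. In the proximal arms the window at 119001 to 120000 of 2R had 53.7 and 81.9 RPKM against 5.48 and 4.30 RPKM, and that at 22404001 to 22405000 of 2L had 24.0 and 45.9 RPKM against 2.85 and 2.25 RPKM. For the distal arms the rule picked windows at 1224001 to 1225000 of 2R and 23423001 to 23424000 of 3L, both inside the pericentric blocks, with log2 fold changes of 3.65 and 3.63. On the Het scaffolds they were at 555001 to 556000 and 2201001 to 2202000 of 3LHet, with 3.61 and 3.59. On U the windows at 44001 to 45000 and 2416001 to 2417000 had 3.62 and a similar value, and the second rests on 47 and 10 input reads. The Uextra windows were at 3081001 to 3082000 and 26582001 to 26583000. Adjusted p by edgeR was at most 1.3e-11 in all 12 windows. The rule took them from windows called higher by the same test, so these p-values and fold changes are descriptions.

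The Hox complexes are silenced by Polycomb and carry another mark, methylation of lysine 27, in cells where they are off. Between 12 and 13 Mb of 3R, around the bithorax complex, 4 of 991 tested windows were enriched, and the means were -0.22 and -0.26. Between 2.5 and 2.9 Mb of 3R, around the Antennapedia complex, 7 of 396 were enriched, with means of 0.35 in replicate 1 and -0.01 in replicate 2. ChIP signal in the Antennapedia interval was 9.27 and 7.36 RPKM, against 6.71 and 7.21 RPKM in input. By the 2-fold criterion 1.77% of the Antennapedia windows and 0.404% of the bithorax windows were enriched, against 1.08% on 3R as a whole. By edgeR's test ChIP was higher than input in 21.5% of the Antennapedia windows and 13.8% of the bithorax windows, against 4.79% on 3R, and lower in 6.31% and 38.8%, against 54.5%. The differences between these intervals and the arm were not tested.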

How the data were processed

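Per the labels' protocols, ovaries were fixed, sonicated and immunoprecipitated, part of each lysate was kept as input, and the libraries were selected by size and read from a single end. The submitters' processing notes name Bowtie, bedtools and build dm3, without versions; the handling of reads with several matches and of duplicates is not given in the sources used here. The authors deposited raw counts per 1 kb window and RPKM. The deposited RPKM equalled the deposited count over window length and the total of all listed windows, with no input subtracted. Windows of the mitochondrial scaffold were left out of the window tests and all enrichment values, and YHet had none past the input filter; both entered the comparison of read shares as classes.

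Counts were tested with edgeR 4.0.16 (quasi-likelihood, ChIP against input, library totals as offsets, 4 libraries, no block), checked first on simulated data. In that simulation few windows changed, all of them upward, so it did not cover a general downward shift like that of these libraries. Alternatives used limma 3.58.1 and DESeq2 1.42.0. Read shares were compared with exact permutation tests (two-sided, scipy 1.17.1). SDs are over 2 replicates. Windows and domains were named by a rule: the 2 with the largest fold change per class, at least 100 kb apart, and the longest domains per chromosome and beyond 2 Mb. Libraries are amplified, so reads are not independent molecules. Regions, classes and tests were chosen with earlier results of these data known. No genome or annotation of dm3 was used, so no genes are named by position, and the limits of 42AB, flamenco and the Hox complexes are round values from general knowledge.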

Additional observations from a re-analysis of the deposited data

Results flagged for a closer look

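Windows under the input filter had no enrichment value in the report and entered only the read shares of all windows and the fits without that filter. Their summed share of ChIP reads exceeded that of input reads. On the Het scaffolds 6508 of 8937 windows were under the filter and held 1.63% and 2.04% of ChIP reads, against 0.275% and 0.311% of input reads, a mean log2 ratio of 2.64. The log2 ratio was 2.57 on U, 2.42 on Uextra, 2.54 in the proximal arms, 2.26 on chromosome 4 and 1.25 in the distal arms. These windows were chosen for low input, which raises such a ratio by construction. For windows just inside the filter (2 to 2.5 RPKM, 834 windows) mean enrichment was 1.48 and 1.54, and just outside it (1.5 to 2 RPKM, 1042 windows) 1.53 and 1.62. On YHet, which is not part of the female karyotype, 69 and 99 ChIP reads were listed, against 44 and 31 input reads, a log2 ratio of 2.32.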

How the results depend on the processing

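No replicate pairing could be shown: deviations of same-numbered ChIP and input libraries correlated with r = 0.0022 across windows. With the replicate number as a block edgeR called 13721 windows higher and 49200 lower, and limma with the block called 13664 and 52169. Higher windows numbered 21969 with no filter on input and 4032 in 5 kb windows, and 8318 to 15777 with each library left out. Lower windows numbered 2677 with TMM factors, 9888 with library sizes from the distal autosomal arms, 596 with DESeq2, 15242 in 5 kb windows and 11521 to 50826 with each library left out. The number of windows tested differed between some of these settings, so their counts are not directly comparable. In 5 kb windows, 16.5% of 24452 were higher and 62.3% lower, against 12.5% and 44.5% of 116751 in the main fit. With no filter on input, 16.2% of 135314 were higher and 38.7% lower. The fits without 1 library assume that the lone sample varies like the others.

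Enriched windows numbered 12205 at a threshold of 0.5, 5257 at an input of at least 5 RPKM, 12661 over any window with a read in both inputs, and 8747 to 10989 without either replicate. Domains numbered 143 and 384 under those input filters, 492 from 5 windows, 75 from 20 windows, 131 with untested windows skipped (chosen after the data were examined), and 249 to 290 without either replicate. The mean for the distal arms was 0.058 after centring on the distal autosomal arms, as that setting fixes it near 0. That centring gave 11536 enriched windows and 290 domains, against 8114 and 244 in the main setting. Enriched windows numbered 5509 at a threshold of 1.5 and 6271 with 5 RPKM added. On U the ratio of summed RPKM was -0.45, and over tested windows alone its read share was lower in ChIP by -0.36 percentage points; both rest on the high-input windows described above.

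The size of enrichment depends on the 1 RPKM added: with 5 RPKM the Het scaffolds averaged 1.47 and the distal arms -0.25, and with 0.1 RPKM the Het scaffolds averaged 2.23. Of all values recomputed under an alternative, 92 were counted as kept, 54 kept their sign and moved further, and the 3 that changed sign are given above. Kept means the same sign and a move within the replicate SD, or under 1.5 times for counts. Read shares were judged by sign alone: the distal-arm difference went from -16.4 to -14.3 percentage points over tested windows. Part of the 92 was fixed in advance. Leaving out 1 replicate cannot move a class mean beyond the replicate SD, and a proximal interval of 2 Mb leaves classes off the long arms unchanged.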

Other observations

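Enriched windows near the distal ends of the arms were few in number and differed between arms, against 2.16% of tested windows on the arms outside the blocks. On 2L, 8 of 43 windows in the last 50 kb were enriched (means 0.81 and 0.54) and 0 of 48 in the next 50 kb. On 3L, 0 of 15 were enriched in the last 50 kb (means -0.03 and -0.42), 19 of 50 between 50 and 100 kb (means 1.01 and 0.63), and 1 of 92 between 100 and 200 kb. On X, 7 of 34 windows of the last 50 kb were enriched, with means of -0.0048 and 0.014. On 2R 4 of 50 were (means 0.66 and 0.18) and on 3R 4 of 43 (means 0.12 and -0.20).

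Enrichment in replicate 1 was also set against enrichment in replicate 2 at a distance, as a description across windows that share their libraries. In the distal arms Pearson's r was 0.62 at 1 kb, 0.39 at 5 kb, 0.31 at 10 kb and 0.17 at 100 kb. On chromosome 4 it was 0.75 at 1 kb, 0.41 at 10 kb, 0.24 at 20 kb, -0.16 at 50 kb and 0.15 at 100 kb.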
